A study of Mus musculus with 22 samples.

Results

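The genes described here are those of the surface proteins by which mouse colon crypt cells were sorted, Cd44, Cd24a, Kit and Epcam, with Kitl, the gene of the ligand of Kit. They are 5 of the 24421 genes counted, and they were taken by name from the count files of all 22 libraries and from the tables of skipped exons, splice junctions and polyadenylation sites. All 5 passed the filter on low counts. The cells came from the colons of untreated wild type C57BL/6N males aged 5 to 7 weeks, and every gate took live cells positive for Epcam and negative for Cd31 and Cd45. Stem cells (Stem, n = 3) had the highest Cd44, low Cd24 and no cKit, the protein of Kit. Absorptive progenitors (AbsPro, n = 3) had medium to high Cd44, low Cd24 and no cKit. SecPDG (n = 4), the gate of secretory progenitors, deep crypt secretory cells and goblet cells, had high Cd44, medium Cd24 and medium cKit. Tuft cells (Tuft, n = 5) were positive for cKit with high Cd24, enterocytes (Ent, n = 5) had low or no Cd44 and no Cd24, and enteroendocrine cells (EEC, n = 2) had low or no Cd44 with Cd24. Libraries held at least 2500 cells, and by the study's methods mice were pooled for all types but Stem and AbsPro, so that p-values measure the spread between these samples.

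Kit is a receptor tyrosine kinase that dimerizes when it binds Kit ligand, also called stem cell factor, and then signals through phosphatidylinositol 3-kinase, Src family kinases and the Ras pathway. In the colon it marks secretory cells that sit beside the stem cells at the crypt base, and elsewhere in the gut wall it marks mast cells and interstitial cells of Cajal. Cd44 is a receptor for hyaluronan and a target of Wnt signaling, and its stalk outside the cell can be lengthened by exons that splicing includes or leaves out. Cd24a encodes a small heavily glycosylated protein held on the membrane by a lipid anchor, and Epcam encodes an adhesion protein of epithelial cells.

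Cd44 (ENSMUSG00000005087) lies on the minus strand of chromosome 2 from 102811141 to 102901665 in GRCm38, the assembly also called mm10. Its longest annotated coding transcript has 19 exons, and the standard form has 9. The 9 exons of the standard form are called constant (c1 to c9), and the 10 others, between c5 and c6, variable (v1 to v10). The start of a variable stretch is therefore read from the exon joined to c5. The 4 junctions that carried most reads from c5 are shown because the results on exon use turn on them. Each line gives the last 30 bases of c5 (chr2:102853015-102853044, minus strand) in lower case and the first 30 bases of the variable exon in capitals, 5′ to 3′, from the GENCODE vM21 transcripts. The capitals lie at chr2:102842920-102842949 for v4, chr2:102839448-102839477 for v6, chr2:102837909-102837938 for v7 and chr2:102834306-102834335 for v8, all in coding exons.

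c5-v4: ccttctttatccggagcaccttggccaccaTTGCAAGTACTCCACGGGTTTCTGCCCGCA
c5-v6: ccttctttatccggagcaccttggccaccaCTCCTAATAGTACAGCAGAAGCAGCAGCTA
c5-v7: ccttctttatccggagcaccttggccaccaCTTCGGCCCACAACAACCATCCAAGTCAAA
c5-v8: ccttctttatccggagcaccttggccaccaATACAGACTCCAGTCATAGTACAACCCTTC

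Kitl (ENSMUSG00000019966) lies on the plus strand of chromosome 10 from 100015630 to 100100416. The form with 10 exons holds an exon 6 of 84 bases that the form with 9 exons lacks. Exon 6 encodes the stretch in which the ligand is cut from the membrane, and the form without it stays mostly bound to the cell. It is printed here because its use was counted, in capitals with 20 bases of each neighbouring exon in lower case, and the capitals lie at chr10:100080857-100080940 on the plus strand.

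Kitl exon 6: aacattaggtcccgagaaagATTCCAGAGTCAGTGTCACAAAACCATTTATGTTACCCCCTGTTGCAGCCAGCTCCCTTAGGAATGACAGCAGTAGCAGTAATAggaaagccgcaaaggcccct

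Counts on genes ran from 4122122 to 22462518 per library. Libraries of the mature types stood apart in their background, read from families taken as not expressed in these cells (olfactory, vomeronasal and trace amine receptors and hair keratin proteins). Whether single members of the families were expressed was not tested. These families took 53.8 to 92.3 CPM in Stem and 767 to 3847 CPM in Ent. They took 613 CPM in 1 EEC library against 6981 CPM in the other, EEC 1. In EEC 1, 89.7% of reads were counted without a feature, among reads on genes, without a feature or ambiguous. The level these families reach per kilobase, times the length of a gene, is given below as the background of that gene. Markers of the labelled types were highest, by the summed normalized count of each list, in their own libraries for Stem, Tuft and EEC. Goblet markers overlapped between Tuft (514021 to 1046780) and SecPDG (550301 to 1463580). Absorptive markers summed to 62049 to 95516 in AbsPro and 46647 to 67756 in Ent, and the EEC libraries, at 20936 and 131375, lay on either side. Most of these sums in AbsPro and Ent was Car1 (means 67469 and 36464), a carbonic anhydrase, while the means of Krt20 (3999.9 and 9909) and, with overlapping libraries, Slc26a3 (2679.6 and 3825) were higher in Ent.

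Kitl was not used in any gate. Its level was highest in Stem and AbsPro and lowest in EEC. Normalized counts, which are counts scaled by TMM (trimmed mean of M values) to the mean library, were 1919, 1693 and 2485 in the Stem libraries. AbsPro held 2277, 1574 and 2270.5, much the same range, with a log2 difference from Stem of 0.01 (SE 0.31), so that the groups overlapped. SecPDG held 705, 832, 862 and 981, and every library lay below every Stem library. The mean of SecPDG was 845 ± 113 (SD, n = 4) against 2032 ± 408 (n = 3), a log2 fold change of -1.27 (SE 0.30, adjusted p = 0.00222 by edgeR's quasi-likelihood test with Benjamini-Hochberg adjustment over all genes, as for every adjusted p of a gene here). The call was lost without SecPDG 1 (adjusted p = 0.0124) or SecPDG 2 (0.0117). A gene is called when this p is under 0.01 and its mean normalized count over all libraries is at least 50.

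Tuft libraries held 550.5, 538, 516, 407 and 782 for Kitl, with only Tuft 5 inside the range of SecPDG and none inside that of Stem. Their mean of 559 ± 137 (n = 5) gave a log2 fold change of -1.85 (SE 0.29, adjusted p = 1.63e-06) from Stem. The 2 EEC libraries held 206 and 237, the lowest values of the 22, and the log2 fold change was -3.19 (SE 0.46, adjusted p = 1.69e-07), or -3.26 without EEC 1. Background amounted to 15.7% of the mean Kitl level in EEC, but it was 58.4 of 206 counts in EEC 1 and 11.0 of 237 in EEC 2. Enterocytes spread from 702 to 1475, with the other libraries at 798, 1030.2 and 1371. None reached the lowest Stem library, and the log2 fold change of -0.92 (SE 0.28, adjusted p = 0.00493) was called. That call was lost with DESeq2 (-0.40, adjusted p = 0.0367), with RLE factors (-0.39, adjusted p = 0.0505), with library totals (-0.49, adjusted p = 0.0265) and in a fit of both types alone (-0.63, adjusted p = 0.0323), and without Stem 1, Ent 2 or Ent 3. In sorted bulk samples, fewer cells with the transcript and less transcript per cell cannot be told apart.

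In order of level, the step for Kitl that was called depended on the scaling. With TMM it was that from Stem to Ent. Under the scalings that lost it, Ent against SecPDG was called instead, at a log2 fold change of 0.85 with DESeq2 (adjusted p = 1.09e-06), 0.85 with RLE factors (adjusted p = 2.33e-04) and 0.99 with library totals (adjusted p = 1.07e-04), where TMM gave 0.35 (adjusted p = 0.262) and the libraries overlapped. AbsPro and Stem overlapped, as did SecPDG and Tuft (0.58, adjusted p = 0.142). Tuft and EEC did not overlap and were not called (EEC against Tuft -1.34, SE 0.45, adjusted p = 0.0263), but were called by DESeq2 (-0.79, adjusted p = 0.00172) and without Tuft 4 (-1.55, adjusted p = 0.00293).

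**Figure D1:**
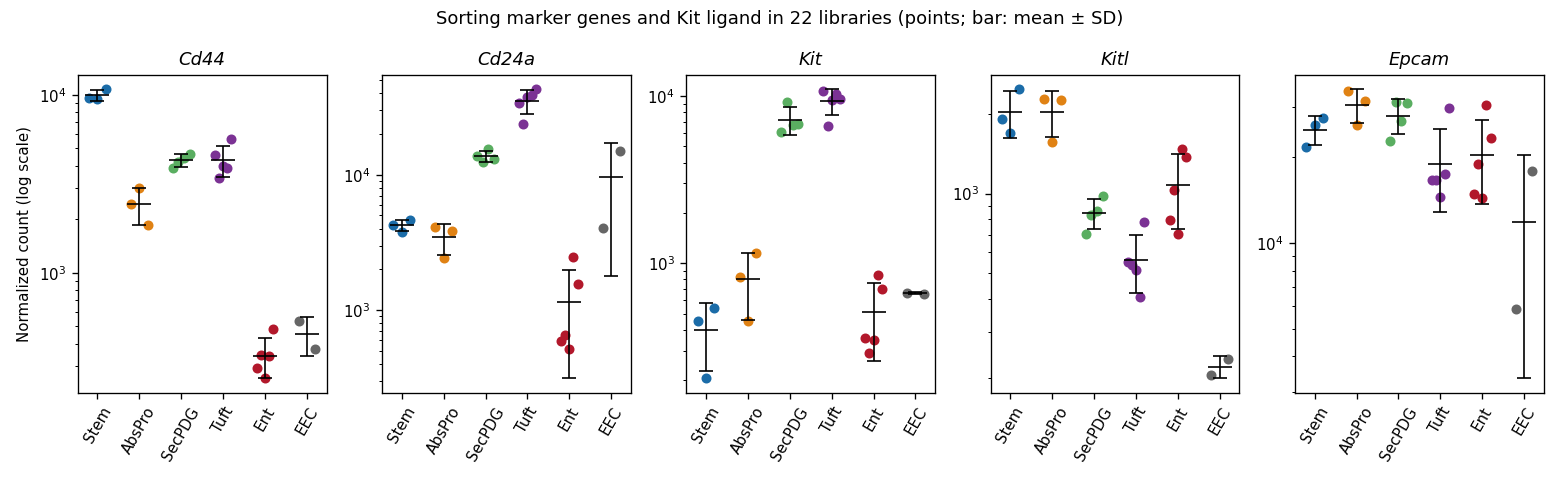
Normalized counts (log scale) of Cd44, Cd24a, Kit, Kitl and Epcam in each of the 22 libraries by cell type, with bars at the mean ± SD. Kit lies between 6069 and 10787 in SecPDG and Tuft and at or below 1147 elsewhere, while Kitl is highest in Stem and AbsPro.

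Kit (ENSMUSG00000005672, chromosome 5, 75574916 to 75656722, plus strand) ran high in SecPDG, gated for medium cKit, and in Tuft, gated as positive for it. By the paper's flow cytometry, however, the cKit protein could be detected in tuft cells alone, although SecPDG held much of the transcript. The Stem libraries held 454, 205 and 542 normalized counts. SecPDG held 6069, 9232, 6713 and 6782, all above every Stem library. The log2 fold change was 4.17 (SE 0.43, adjusted p = 4.64e-11), from 400 ± 175 (n = 3) to 7199 ± 1393 (n = 4), an 18.0-fold difference. Tuft held 10787, 6619, 9450.1, 10330.1 and 9583, and lay 23.5-fold above Stem (log2 4.55, SE 0.43, adjusted p = 1.85e-12). SecPDG and Tuft overlapped, and their difference of 0.38 (SE 0.31, adjusted p = 0.367) was not called.

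Kit transcripts were also counted in AbsPro, Ent and EEC. AbsPro held 831, 449.7 and 1147, with 1 library inside the range of Stem (log2 1.02, SE 0.42, adjusted p = 0.364). Enterocytes ran from 291 through a median of 357 to 851, across the range of Stem (0.35, adjusted p = 0.446), with a background of 4.93% of the level. The EEC libraries held 667 and 654, both above the highest Stem library (0.73, adjusted p = 0.226), a difference that DESeq2 (1.53, adjusted p = 1.69e-04) and RLE factors (1.45, adjusted p = 0.00208) called. The step from SecPDG down to AbsPro was the only called one between neighbours in the order of Kit levels (log2 3.16, SE 0.40, adjusted p = 5.36e-08).

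The ratio of ligand to receptor transcripts stood on either side of 1 by cell type. Per kilobase of exon, the Stem libraries held 3.85, 7.53 and 4.17 times as much Kitl as Kit. AbsPro held 1.80 to 3.19 times and Ent 1.58 to 3.22 times as much. In SecPDG the ratio was 0.109 ± 0.0210 (n = 4), in Tuft 0.0561 ± 0.0173 (n = 5), and in EEC 0.281 and 0.329. The ratio was above 1 in every Stem, AbsPro and Ent library and below 1 in every SecPDG, Tuft and EEC library. Because Kit was part of the gate and enters the ratio, the split is given as a description.

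Other cells that carry Kit were looked for in the same libraries. The summed level of 7 mast cell markers was at most 62.2 normalized counts in SecPDG, where Ms4a2, a subunit of the IgE receptor, was at 0 in all libraries. In Tuft the same sum ran from 35.4 to 272, against Kit at 6619 to 10787. For 7 markers of stromal and interstitial cells of Cajal, sums lay between 1921 and 3271 in SecPDG and between 1661 and 2249 in Tuft, against 141 to 366 in Stem. Most of these sums was Ano1, a chloride channel, with means of 2302 and 1616 in SecPDG and Tuft, and Dcn, the stromal proteoglycan decorin, was at 0 in every SecPDG library. In Tuft 3 of the 7 were called higher than in Stem, where 12.1% of all genes were called. Besides Ano1 these were Etv1 (mean 89.2 against 0.898, log2 6.34) and Pdgfra (104 against 12.9, log2 2.97), on backgrounds of 18.1 and 23.0 in Tuft. Immune markers summed to 1463 to 3502 in Tuft against 195 to 220 in Stem and 40.4 to 156 in SecPDG, and most of the Tuft sum was Ptprc (mean 1671), with Csf1r (114) the only other gene of the 9 that was called there. The part of immune or stromal cells in the Kit values was not tested.

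Cd44 had its highest level in Stem, the gate with the highest Cd44 protein, and its lowest in Ent and EEC, the gates with low or no Cd44. The Stem libraries held 9577, 9502 and 10724 normalized counts, above all 19 others. AbsPro held 2421, 2994 and 1856, a called drop with a log2 fold change of -2.03 (SE 0.35, adjusted p = 1.88e-04). SecPDG held 3865, 4176, 4418 and 4665 (log2 -1.21, SE 0.31, adjusted p = 0.00531). Tuft held 4600, 3425, 3953, 3879 and 5668 (-1.20, SE 0.29, adjusted p = 0.00161). Neither group reached the Stem libraries. The SecPDG call was lost without Stem 1 and without each of the 4 SecPDG libraries in turn (adjusted p = 0.0069 to 0.0276 over the 7 fits), with the fold change between -1.26 and -1.14.

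Enterocytes held 255 to 480 normalized counts of Cd44 with a median of 342, a level 29.1-fold below Stem (log2 -4.86, SE 0.34, adjusted p = 7.36e-17). The EEC libraries held 533 and 375 (log2 -4.47, SE 0.49, adjusted p = 9.36e-11), and without EEC 1 the log2 fold change was -4.89. Background came to 7.88% of the mean Cd44 level in Ent and 7.48% in EEC, where it was 57.2 counts in EEC 1 and 10.7 in EEC 2. By level, Tuft and SecPDG overlapped (log2 difference 0.01), SecPDG and AbsPro did not overlap but were not called (0.82, adjusted p = 0.151), AbsPro and EEC differed (2.44, SE 0.46, adjusted p = 3.65e-05), and EEC and Ent overlapped (0.39, adjusted p = 0.651). DESeq2 (0.83, adjusted p = 0.00969), RLE factors (0.84, adjusted p = 0.00886) and a fit of both types alone (0.85, adjusted p = 0.00388) called SecPDG against AbsPro. In a fit of AbsPro and EEC alone their difference lost its call (log2 EEC against AbsPro -2.22, adjusted p = 0.0104).

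Cd24a (ENSMUSG00000047139, chromosome 10, 43578284 to 43584265, plus strand) was highest in Tuft, gated for high Cd24. Stem held 4258, 3806 and 4595 normalized counts. Tuft held 33985, 23553, 37269.5, 38614 and 42827, all above every other library of the series. The log2 fold change was 3.06 (SE 0.49, adjusted p = 3.62e-06), an 8.36-fold rise. SecPDG held 13693, 12494, 15442 and 12994.5, also clear of Stem, with a log2 fold change of 1.69 (SE 0.47, adjusted p = 0.0133) that was not called. DESeq2 called it (1.72, adjusted p = 9.2e-08), as did RLE factors, library totals, no filter on low counts and a fit of both types alone.

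AbsPro, gated for low Cd24 as Stem was, held 4116, 2439 and 3819 counts of Cd24a and overlapped Stem (log2 -0.29, adjusted p = 0.993). Enterocytes, gated for no Cd24, held 591, 657, 513, 2453 and 1547, with Ent 4 and Ent 5 well above the other 3. All stayed below Stem, and the log2 fold change was -1.87 (SE 0.44, adjusted p = 5.04e-04). The EEC libraries, gated for Cd24, differed from each other, at 4066 in EEC 1 and 15025 in EEC 2. Against Stem the log2 fold change of 1.18 (SE 0.53, adjusted p = 0.0604) was not called, and it became 1.67 (adjusted p = 0.00173) without EEC 1 and -0.056 (adjusted p = 0.987) without EEC 2. DESeq2, RLE factors and library totals called it (1.40 to 1.72). In the order of levels, Tuft and SecPDG did not overlap and were not called (1.37, SE 0.41, adjusted p = 0.0210, called by DESeq2 at 1.54), and AbsPro and Ent were called (1.58, SE 0.44, adjusted p = 0.00371) although 1 Ent library reached the AbsPro range. The latter call was lost without Ent 2 (adjusted p = 0.0147) or Ent 3 (0.0131).

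Epcam (ENSMUSG00000045394, chromosome 17, 87635979 to 87651129, plus strand), which every gate required, was called by edgeR with TMM in none of the 15 comparisons. An unadjusted p under 0.05 was found in 2 of them, EEC against AbsPro (0.0249) and against SecPDG (0.0332), and DESeq2 called Ent against Tuft (0.44, adjusted p = 0.00274). Stem libraries held 21592.5, 25909 and 27334 normalized counts, AbsPro 33985, 25883 and 31345, and SecPDG 22826, 31251, 26824 and 30802. Tuft held 16581, 16552, 14463, 17362 and 29668, with the last above every Stem library. Enterocytes ran from 14329 through 18854 to 30351, and the EEC libraries held 5845 and 17881. The EEC mean of 11863 ± 8511 (n = 2) lay furthest from Stem (log2 -1.07, SE 0.58, adjusted p = 0.122), and it was called without EEC 2 (-2.10, adjusted p = 0.00270) and not without EEC 1 (-0.64, adjusted p = 0.274), and library totals called it (-0.82, adjusted p = 0.00479). Of the 15 comparisons between cell types, that of EEC with AbsPro had the largest log2 fold change for Epcam, -1.35 (SE 0.59, adjusted p = 0.0538). Per kilobase of exon, Epcam was at 11364.5 ± 1362 in Stem (n = 3), above Cd24a at 2074 ± 195, Cd44 at 1757 ± 121, Kitl at 352 ± 70.7 and Kit at 76.2 ± 33.3.

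Counted together, 1 of the 5 genes was called between AbsPro and Stem, where 0.588% of the 22781 genes tested were called. The count was 3 in SecPDG (4.98% of all genes), 4 in Tuft (12.1%), 3 in Ent (22.2%) and 2 in EEC (19.9%). Only the 13188 genes with a mean of at least 50 could be called, so the shares among such genes are higher than those over all genes tested. These comparisons share the Stem libraries. Of the genes called, Cd44 was lower than in Stem in all 5 types, Kitl was lower in SecPDG, Tuft, Ent and EEC, Kit was higher in SecPDG and Tuft, and Cd24a was higher in Tuft and lower in Ent. Since Cd44, Cd24a and Kit proteins set the gates, their counts follow the sort in part by design. The count in EEC was 4 under DESeq2 and RLE factors, which added Cd24a and Kit, and under library totals, which added Cd24a and Epcam, while 5418 to 5708 of all genes were called in place of 4541.

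**Figure D2:**
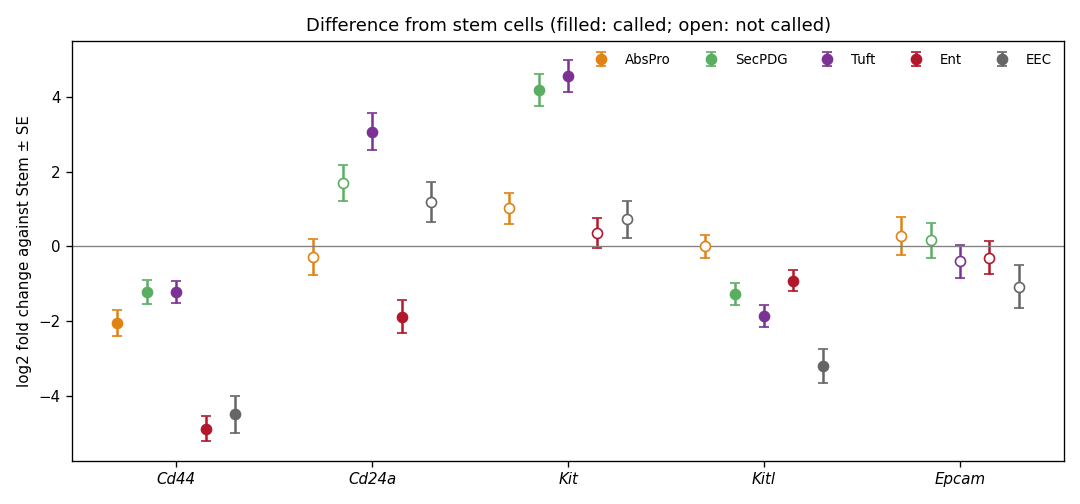
Log2 fold change against Stem with its standard error (vertical axis) for each gene in the 5 other cell types, filled where called. Cd44 lies below 0 throughout, from -1.20 in Tuft to -4.86 in Ent, and no Epcam point is filled.

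Between the other types, 3 of the 5 genes were called between SecPDG and AbsPro (3.72% of all genes), Tuft and AbsPro (8.13%) and Ent and AbsPro (16.2%), and 2 between EEC and AbsPro (18.3%). Against SecPDG the counts were 3 in Ent (23.4%) and 3 in EEC (21.3%). None was called between Tuft and SecPDG (3.36%) by edgeR, where Cd24a and Kitl had an unadjusted p under 0.05 (0.00135 and 0.0438) and DESeq2 called Cd24a. Against Tuft 3 were called in Ent (8.44%) and 3 in EEC (9.29%), and 2 were called between EEC and Ent (4.71%). Kitl was called between AbsPro and each of SecPDG (log2 -1.27, adjusted p = 0.00269), Tuft (-1.86, adjusted p = 2.02e-06), Ent (-0.92, adjusted p = 0.00662) and EEC (-3.19, adjusted p = 2.19e-07), the same types in which it was called against Stem.

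Variable exons of Cd44 were read from the rMATS tables, which compare each type with Stem and list skipped exon events, each an exon with its neighbours and counts of reads that include or skip it. Libraries stand in these tables without names and are numbered by place, and events that share exons share reads. The reads that joined c5 to a variable exon were taken from the skipping counts, and a junction that a table does not list is not counted. In Stem, 756 such reads were found over 3 libraries. The largest share, 40.7%, joined c5 to v7 (95% Wilson interval 37.3% to 44.3%, which like all intervals here covers counting error only). Next came v8 with 22.6%, v4 with 17.9% and v6 with 8.60%, and v3, v5 and v9 took 3.04% to 3.57% each.

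Stem libraries differed among themselves in the exon joined to c5. Of 197, 295 and 264 reads, v7 took 53.3%, 21.4% and 53.0%, so that the second library stood below the others. That library also held 56 of the 65 reads to v6 and all 27 to v9, and without it v6 took 1.95%. The share of v8 was 17.3%, 22.7% and 26.5%. In AbsPro, 100 reads were found, all in 2 of 3 libraries, and v7 took 34.0%, v4 28.0% and v6 26.0%. No AbsPro read joined c5 to v8 (0 of 47 and 0 of 53 reads, or 0 of 100, which allows a share of up to 3%).

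SecPDG carried 269 reads from c5 that spread over v7 (29.4%), v6 (24.2%), v4 (23.0%) and v8 (15.2%). Its libraries were alike in v7, at 25%, 32.9%, 31.9% and 26.8%, and held 18.8%, 10%, 21.7% and 12.2% of v8. Tuft carried 369 reads, with v7 at 46.3%, v4 at 18.2%, v8 at 14.9% and v6 at 11.7%. The Tuft libraries were unlike each other. In the library at place 1, v7 took 92.2% of 103 reads, and in that at place 3, v9 took 52.2% of 46 reads and v7 none. At places 2, 4 and 5 the share of v7 was 54.3%, 30.6% and 30.9%. Without place 1, v7 took 28.6% of 266 reads. In Ent 21 reads were left, 17 of them to v4, and in EEC none were found for v8 and v9, the exons its table lists.

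**Figure D3:**
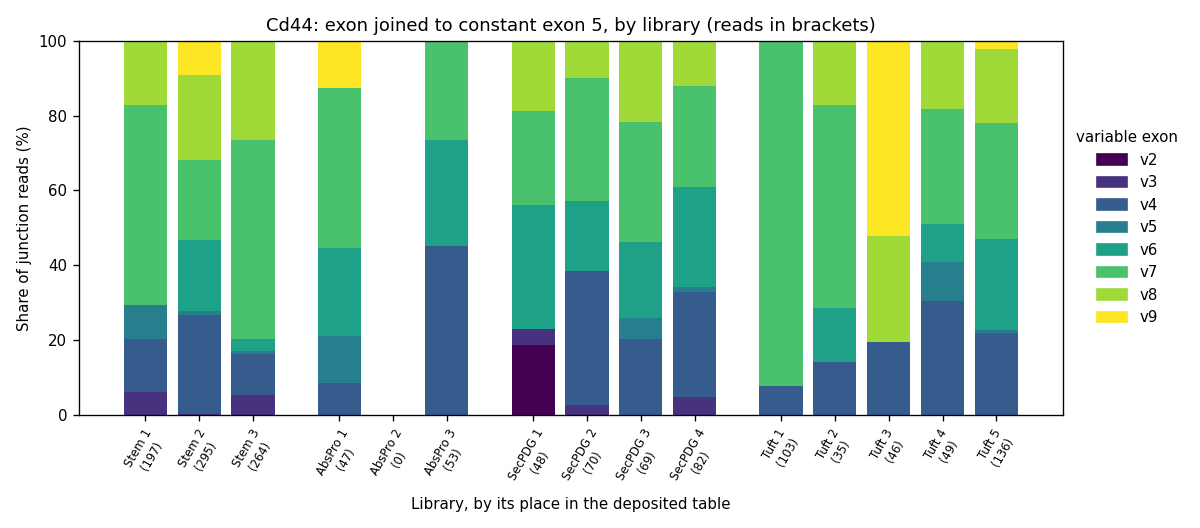
Share of reads (percent, vertical axis) joining constant exon 5 of Cd44 to each variable exon, for each library of Stem, AbsPro, SecPDG and Tuft by its place in the table, with the number of reads in brackets. SecPDG libraries are alike, while v7 takes 92.2% in the first Tuft library and v9 takes 52.2% in the third.

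The MAJIQ tables, whose values are the authors' pooled shares with no value per library, give the use of junctions from c5 in 3 of the cell types. In Stem the authors' share of c5 to v7 was 42.5% and of c5 to v8 27.7%, and in AbsPro 58.2% and 2.5%. In SecPDG these shares were 31.7% and 11.2%, with 23.1% for v4 and 21.1% for v6. The standard form, c5 joined to c6, had an authors' share of 0% in Stem and SecPDG and 0.1% in AbsPro. For reads entering v5, those from c5 took 26.0% in Stem and 2.1% in AbsPro, and 26.9% in Stem and 2.8% in Tuft, the rest coming from v4. In the rMATS counts, 18 of the 23 Stem reads from c5 to v5 lay in the library at place 1, and all 6 of AbsPro in 1 library.

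Inclusion of v7 between c5 and v8 could be followed in every table. Inclusion levels, corrected for the length of each form, were 88.9%, 75.9% and 77.9% in Stem and 100% in all 3 AbsPro libraries. The groups did not overlap, and the exact permutation test (two-sided) gave p = 0.10, the smallest that 3 against 3 allows. The AbsPro library at place 2 had no counted reads from c5 to a variable exon, so its 100% rests on other reads of v7. The AbsPro libraries at places 1 and 3 had 47 and 53 reads from c5, against 197 to 295 in Stem. SecPDG libraries held 93.7%, 87.9%, 86.1% and 87.2%, with an exact permutation p of 0.171, and Tuft 100%, 87.3%, 88.7%, 84.3% and 80.3%, with p = 0.232. Both overlapped Stem. Exon v8 itself was nearly always kept between v7 and v9, at 94.98% to 100% in every Stem, AbsPro, SecPDG and Tuft library.

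In SecPDG, v6 between c5 and v8 was included at 44.6%, 53.8%, 43.0% and 56.7%, against 25.7%, 27.4% and 19.7% in Stem. The groups did not overlap, with means of 49.5% ± 6.77 (n = 4) and 24.3% ± 4.05 (n = 3) and an unadjusted exact permutation p of 0.0286, the smallest the design allows. It was singled out after the values were seen, as the 1 of 22 Cd44 events with a p under 0.05 in that table, and edgeR's adjusted p was 0.894. The reads behind each SecPDG value numbered 25 to 40. The Stem library at place 1 had 0 reads from c5 to v6, so its value rests on other reads of v6. In Stem, v7 between v6 and v8 was kept at 100%, so that no Stem read joined v6 to v8. The largest mean differences with reads in all libraries, v4 and v3 between c5 and v6, rested on unlike Stem libraries. For v4 these held 100%, 44.3% and 76.2% against 0%, 54.1%, 49.1% and 37.2% in SecPDG, and for v3 100%, 0.780% and 65.6% against 5.21% to 12.3%, both with an exact permutation p of 0.143.

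In AbsPro, v5 between c5 and v6 was included at 72.5% ± 32.9 in Stem and 59.7% ± 37.8 (n = 3 each, exact permutation p = 0.80). In Tuft, v4 between c5 and v5 was at 83.0% ± 20.3 in Stem and 94.7% ± 10.01 (n = 5), and v6 between c5 and v8 at 24.3% ± 4.05 and 38.6% ± 37.2, with exact permutation p-values of 0.304 and 0.643. In Ent, v8 was kept at 100% in every library in the events named, and in EEC v7 between v6 and v8 was at 50% ± 70.7 (n = 2) against 100% in Stem.

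By edgeR's quasi-likelihood test of inclusion against skipping counts over all events of a table, no Cd44 event was called at an adjusted p under 0.05. The tables listed 18, 30, 23, 14 and 7 Cd44 events for AbsPro, SecPDG, Tuft, Ent and EEC, of which 16, 22, 21, 14 and 6 had enough reads to be tested. No event of any gene was called either (0% of 1819, 1658, 1509, 1331 and 943), and 6, 21, 22, 66 and 29 events had an unadjusted p under 0.05. With a trended dispersion the counts of Cd44 events called were also 0. The standard errors of the log2 odds were 1.68 to 2.45 for v7 and v6 in SecPDG and Tuft and for v4 in SecPDG. The paper, by rMATS at an FDR under 0.05, reports skipped exon changes in these comparisons, with the largest number between stem cells and AbsPro. Since the edgeR test called no event of any gene in these tables, its 0 calls for Cd44 say little of single exons.

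Kitl exon 6 was covered by few reads. Including and skipping reads were 2 and 0, 19 and 0, and 54 and 8 in the Stem libraries by place, and 8 and 1, 0 and 0, and 27 and 3 in AbsPro. Including reads led in every one of these libraries that had reads. In SecPDG they were 0 and 52, 4 and 0, 8 and 0, and 5 and 4. The library at place 1 thus held 52 of the 56 skipping reads of SecPDG, and the other 3 held all 17 including reads.

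The Tuft libraries held 29 including and 13 skipping reads of Kitl exon 6, with 1 library without reads, and Ent held 53 and 4. In EEC the only reads were 20 skipping ones in 1 library. Mean inclusion levels were 92.8% ± 12.4 in Stem (n = 3), 82.1% ± 1.22 in AbsPro (2 libraries with reads) and 60.1% ± 48.9 in SecPDG (n = 4), or 80.1% ± 34.4 without the library at place 1. In these tables and that of EEC, edgeR's adjusted p was 0.984, 0.889 and 0.818. The event had too few reads for the test in Tuft and Ent. The other member events were 2 exons of Epcam in the Ent table, both included at 99.9% or more, and no skipped exon of Kit or Cd24a was listed.

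**Figure D4:**
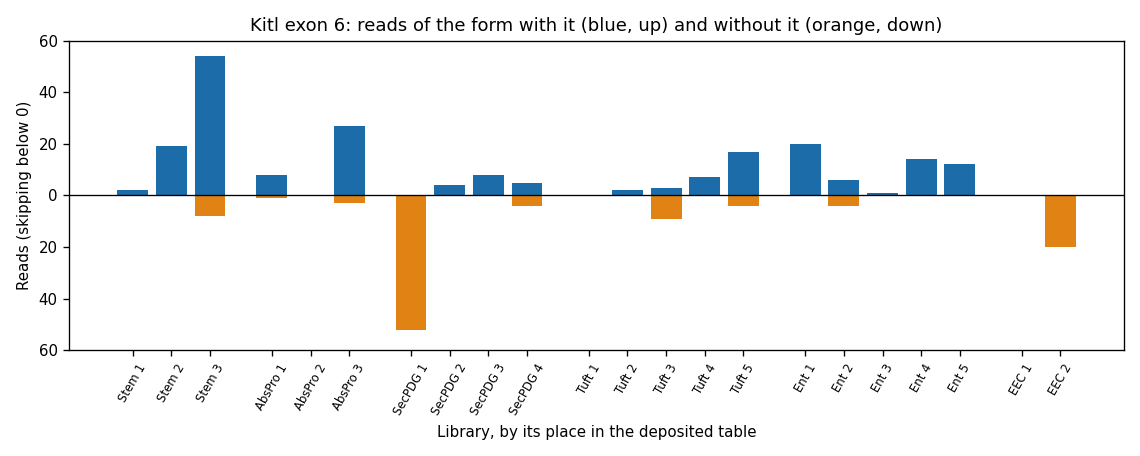
Reads that include (up) and skip (down) Kitl exon 6 in each library, by place in the table. Skipping reads are concentrated in 1 SecPDG library (52) and 1 EEC library (20), and including reads are most numerous in the third Stem library (54).

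Use of the distal polyadenylation site, the share of transcripts with the longer end as estimated by DaPars, was given for Cd44, Cd24a and Epcam. For Cd44 it was 12%, 20% and 16% in Stem, between 13% and 19% in AbsPro libraries, between 15% and 22% in SecPDG libraries and between 11% and 16% in Tuft libraries, all overlapping. For Cd24a it was 36%, 31% and 28% in Stem and stayed within 26% to 35% in every library of AbsPro, SecPDG, Tuft and EEC, with 14% to 40% in Ent. For Epcam it was 17.7% ± 2.08 in Stem (n = 3) and 22.5% ± 3.79 in SecPDG (n = 4), the largest rise (log2 0.41, SE 0.26, adjusted p = 0.847), and 7% and 17% in EEC. By limma's moderated test on the log2 share, none of these genes was called at an adjusted p under 0.05. The share of all transcripts called was 0% of 4976 in AbsPro, 0.0237% in SecPDG, 0.0614% in Tuft, 0.0408% in Ent and 0% of 735 in EEC, where 196, 205, 169, 209 and 101 had an unadjusted p under 0.05.

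**Figure D5:**
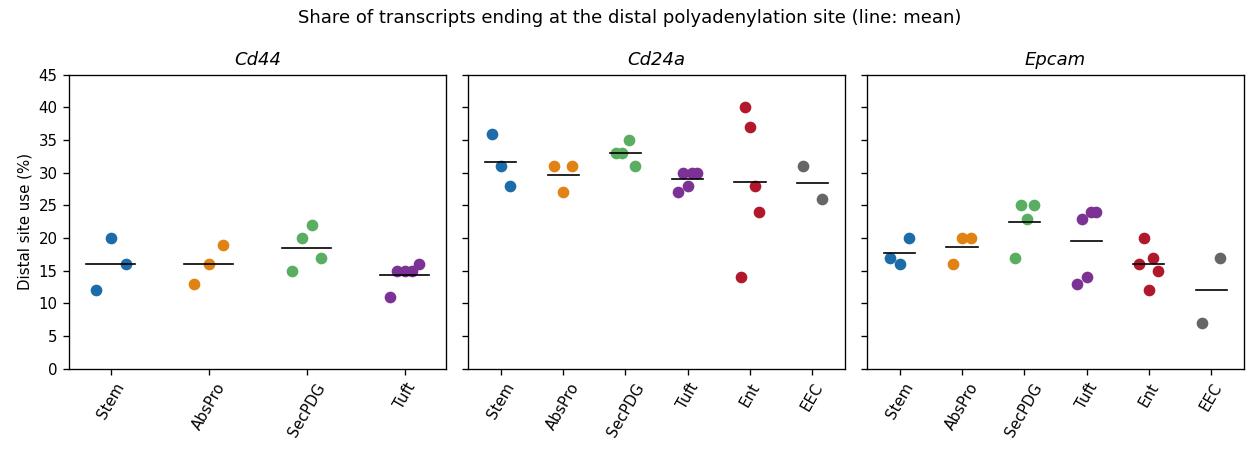
Share of the distal polyadenylation site (percent) of Cd44, Cd24a and Epcam in each library by cell type, with a line at the mean. Cd44 stays between 11% and 22% in all libraries shown, and Ent libraries spread most for Cd24a, from 14% to 40%.

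Genes that work with these proteins were counted by list, and the shares of all genes called, 0.588% in AbsPro, 4.98% in SecPDG, 12.1% in Tuft, 22.2% in Ent and 19.9% in EEC, are the background for each count. Of 17 adaptors, kinases and effectors of Kit signaling, none was called in AbsPro (nor by DESeq2, and 0 had an unadjusted p under 0.05), 1 was higher in SecPDG, 2 higher and 2 lower in Tuft, 4 lower in Ent, and 1 higher and 2 lower in EEC. Fyn, a Src family kinase, rose in SecPDG (log2 1.69, adjusted p = 0.00720), Tuft (1.91) and EEC (2.45), and Lyn, another, rose in Tuft (1.19). Pik3r1, the regulatory subunit of phosphatidylinositol 3-kinase, fell in Tuft (-1.03), Ent (-1.47) and EEC (-1.63), and Akt1 fell in Ent (-1.38) and EEC (-1.47). The called shares of 4 of 17 in Ent and 3 of 17 in EEC were near the shares of all genes tested. They were below the shares among the 13188 genes with a mean of at least 50, of which 5060 and 4541 were called. The medians of the list were -0.09, 0.02, -0.18, -0.65 and -0.62 in the 5 comparisons, beside medians of all genes with at least 50 counts of 0.04, -0.06, -0.09, -0.30 and -0.30. The Fyn call in SecPDG held under 1 of 4 scalings.

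Of 8 negative regulators of Kit, 1 fell in SecPDG, 1 rose in Tuft, 1 fell in Ent and 3 rose in EEC, so that in Tuft the share was near the 12.1% of all genes and in Ent below the 22.2%. Ptpn6, a phosphatase that acts on activated receptors, held 391 to 507 normalized counts in Stem and 2635 to 6942 in Tuft (log2 3.16, SE 0.35, adjusted p = 3.73e-10). Sh2b3, an adaptor that damps cytokine receptors, fell in SecPDG (-1.38) and Ent (-1.24), the latter under 1 of 4 scalings only. Socs1 (2.97) and Grb10 (2.17) rose in EEC, where without EEC 1 the list had 1 call. Of the 5 receptors of the Kit family, Kit alone was called in SecPDG, while Csf1r and Pdgfra rose with it in Tuft and Flt3, Csf1r and Pdgfra rose in Ent and EEC. These 3 stood at means of 78.1 to 358 normalized counts where called in Ent and EEC, on a background of 17.5 to 57.2, and without EEC 1 there was 1 call in EEC.

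Of 8 proteases and inhibitors that act on the shedding of Kit ligand and Cd44, 1 rose and 1 fell in SecPDG, 1 rose in Tuft, 1 rose and 1 fell in Ent and 1 fell in EEC. In Tuft, Ent and EEC these shares were near or below those of all genes (12.1%, 22.2% and 19.9%). Mmp14, a membrane metalloprotease, held 1811 to 2089 in Stem and fell in Ent (log2 -1.47, adjusted p = 5.83e-04) and EEC (-2.21, adjusted p = 4.03e-04). Timp2, an inhibitor of such proteases, rose in SecPDG (1.64) and Tuft (1.85), and Timp3 rose in Ent (1.29) and fell in SecPDG (-2.03). Adam10 and Adam17, the membrane sheddases, were among the genes of the list that were not called.

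Of 10 Cd44 ligands and enzymes that make or break hyaluronan, 1 rose in SecPDG (Tmem2) and 1 in Tuft (Cemip). In Ent 2 rose and 2 fell, and in EEC 2 rose and 1 fell. Of all genes, 4.98%, 12.1%, 22.2% and 19.9% were called in SecPDG, Tuft, Ent and EEC. Tmem2, a hyaluronidase of the cell surface, went from 429 to 543 normalized counts in Stem to 897 to 1662 in SecPDG (log2 1.37, adjusted p = 0.00168). Tmem2 also rose in Ent (1.03) and EEC (1.57). Cemip had the largest change of the list, at 2.94 in Tuft (called under 2 of 4 scalings), 4.11 in Ent and 5.04 in EEC. Its means there were 116, 249 and 509 normalized counts, on backgrounds of 17.2, 34.0 and 42.7. Hmmr, a hyaluronan receptor of dividing cells, fell in Ent (-1.81) and EEC (-3.86), and Hyal2 fell in Ent (-1.29). Of 6 partners of the Cd44 tail, Rdx (radixin), which ties it to actin, rose in AbsPro from 31.0 to 43.5 normalized counts in Stem to 146 to 538 (log2 3.38, SE 0.55, adjusted p = 1.09e-04), the 1 call of this list there. Rdx also rose in Tuft (3.04) and Ent (4.02), with its largest change in Ent. Msn (moesin) rose in Tuft (3.88) and EEC (4.23), and Ank3 rose in Ent (0.93).

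Of 11 regulators of Cd44 variable exon splicing, edgeR called none in AbsPro, SecPDG or Tuft (0, 1 and 5 had an unadjusted p under 0.05, and DESeq2 called 0, 0 and 2), while 7 fell in Ent and 6 fell in EEC. Of all genes, 22.2% were called in Ent and 19.9% in EEC in either direction, with 2614 and 2082 of the 22781 lower. Under the 3 other scalings 6 or 7 fell in Ent and 6 to 8 in EEC, with 1 rising in EEC under RLE factors and DESeq2, and without EEC 1 5 fell. Esrp1, the epithelial splicing regulator, held 4649 to 5686 in Stem, 4577 to 6025 in AbsPro and 4689 to 6759 in SecPDG, and fell in EEC (log2 -1.97, adjusted p = 9.78e-04). Ptbp1, a repressor of exons, fell in Ent (-1.87) and EEC (-1.92), as did Srsf1 (-1.68 and -1.90) and Hnrnpm (-1.37 and -1.79). The median of the list was -1.33 in Ent and -1.55 in EEC, against -0.30 for all genes in both.

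Of 11 partners of Epcam, edgeR called 1, Fhl2 in EEC (log2 1.82), where DESeq2 called 5. The 3 receptors of Cd24 that were tested had means of 35.96 to 48.7 normalized counts, below the minimum for a call, and their adjusted p was under 0.01 for 2 in Tuft, 3 in Ent and 3 in EEC. Among 10 other surface markers in use for sorting intestinal epithelium, Siglecf (log2 6.46, 878 to 2328 normalized counts in Tuft against at most 27.6 in Stem) and Il17rb (3.77) rose in Tuft. Slc12a2, an ion cotransporter of crypt base cells, fell in Ent (-2.98) and EEC (-5.47), and 4 and 6 of the list fell there, where 2 rose in EEC, against 22.2% and 19.9% of all genes called. The genes of the sort exclusion proteins were called higher in Tuft, Ent and EEC although Cd31+ and Cd45+ cells were gated out. Ptprc (Cd45) held 958 to 3003 in Tuft against at most 32.3 in Stem (log2 6.47, SE 0.51, adjusted p = 5.09e-16). Pecam1 (Cd31) held 618 and 733 in EEC (mean 676, on a background of 24.9) against at most 2.70 in Stem. The 5 endothelial markers, of which Pecam1 itself is 1, summed to 1349 to 2055 in EEC. The part of endothelial cells was not tested.

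Over the 22 libraries, the genes most like each of the 5 by Pearson correlation of log2 CPM were Reep5 (r = 0.987), Pde2a (0.962) and B3galt2 (0.961) for Kit. For Kitl they were Utp20 (0.964), Csrp2 (0.961) and Acsm3 (0.954). For Cd44 they were Aqp1 (0.963), Mcm4 (0.946) and Dnmt1 (0.945), for Cd24a Zfhx3 (0.948), Krt18 (0.939) and Nav2 (0.926), and for Epcam Vdac2 (0.976), Ppp2r5a (0.967) and Acat1 (0.966). Among the 5, Cd24a and Kit were most alike (r = 0.858), followed by Kitl and Epcam (0.737), while Kit and Kitl had r = -0.365. These correlations are a description, since the libraries fall into 6 cell types and share differences in depth and background.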

How the data were processed

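RNA of sorted colon crypt cells was measured in 22 libraries of 6 cell types, named from their labels. The authors aligned reads to mm10 with STAR 2.5.2a and counted them with HTSeq 0.6.1p1 without strand, and they deposited raw counts per gene. Per the labels, libraries came from a low input kit, with 1 ng of RNA. Entries that name no gene (40.9% to 89.7% of reads without a feature) stayed out of library sizes. The rMATS tables were deposited with inclusion and skipping read counts per library, and the DaPars tables with a fraction, the share of the distal site. The authors' p-values, FDRs and differences in the rMATS, MAJIQ and DaPars tables were not used. Of MAJIQ, the authors' pooled junction shares were used.

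Genes were fitted in edgeR 4.0.16 (R 4.3.3), with a term for cell type over the 22 libraries, filterByExpr, TMM and the bias-adjusted quasi-likelihood fit. Events with at least 20 reads on average and 10 of each form were tested with edgeR on paired counts, and fractions with limma 3.58.1 on log2 with a pseudocount of 0.01. DESeq2 1.42.0, other scalings, filters and thresholds, a replicate block and each library left out in turn served as alternatives, and trended dispersion was added after the values were seen. The background, the mean per kilobase of gene families taken as unexpressed, assumes even coverage and that no member of them was expressed. No deposited library was a copy of another.

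The 5 genes and the lists were chosen with earlier results of these data known. Of each list, up to 4 called genes with the largest change were named, and of each gene, the 3 most correlated. Skipped exons named were the 2 largest differences per table with reads in every library, v7 between c5 and v8, and Kitl exon 6. Each test was tried on data simulated with a set spread, which does not measure its power in these libraries. Gene positions and lengths come from GENCODE vM21 on GRCm38. Since counting ignored strand, reads of overlapping antisense genes cannot be told apart.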

Additional observations from a re-analysis of the deposited data

Results flagged for a closer look

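In 33 groups of 4 to 10 libraries, 1 extreme value lay apart from the rest by Dixon's test in 5, and chance flags about 1 in 20 groups. Epcam in Tuft 5 was at 29668 normalized counts, against 14463 to 17362 in the other 4 Tuft libraries. The distal site share of Cd44 was 11% in the Tuft library at place 1, against 15% to 16% in the others. Inclusion of Cd44 v3 between c5 and v6 was 12.3% in the SecPDG library at place 4, against 5.21% to 6.34%. Inclusion of Cd44 v4 between c5 and v5 was 77.0% in the Tuft library at place 4, against 96.5% to 100%. Inclusion of Cd44 v7 between c5 and v8 was 68.75% in the Ent library at place 2, against 100% in the other 3 with reads. That value rests on 2 skipping reads. Since the other 3 are tied at 100%, any lower value would have been flagged. The causes were not tested.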

How the results depend on the processing

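Against Stem, the number of the 5 genes called stayed at 1 in AbsPro and 4 in Tuft under every alternative that kept all libraries, and was 2 to 3 in Ent and 2 to 4 in SecPDG. In EEC it was 4 under DESeq2, RLE factors and library totals, against 2. With each library left out in turn, it was 1 in AbsPro, 4 in Tuft, 2 to 3 in Ent, 2 to 3 in EEC and 1 to 3 in SecPDG, where it was 1 without SecPDG 1 or SecPDG 2. The numbers of Cd44 exon events and of distal sites called stayed at 0 in every fit. The medians of all genes moved between scalings from -0.30 to 0.35 in Ent and from -0.30 to 0.48 in EEC, and the share of calls that were higher than in Stem moved from 48.3% to 75.6% (RLE) in Ent and from 54.2% to 77.3% in EEC.

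Uncalled differences changed sign as follows. Kitl in AbsPro was -0.022 (DESeq2), -0.021 (RLE), -0.058 (totals), -0.057 (no filter) and -0.034 (both types alone), and -0.077 to 0.16 with libraries left out. Epcam in Ent was 0.22 (DESeq2, RLE) and 0.12 (totals), and in SecPDG -0.076 (totals). Kit in EEC against AbsPro was 0.56 (DESeq2), 0.47 (RLE) and 0.19 (totals). Cd44 in Tuft against SecPDG was -0.13 without a filter and -0.15 to 0.082 with libraries left out, and Epcam in Ent against Tuft -0.014 with both types alone and -0.11 to 0.32. With libraries left out, Kit in Ent was -0.15 to 0.50 and Cd24a in EEC -0.056 to 1.67. Log2 distal shares ran from -0.20 to 0.21 (Cd44, AbsPro), -0.37 to 0.047 (Cd44, Tuft), -0.25 to 0.010, -0.47 to 0.021 and -0.030 to 0.20 (Cd24a in AbsPro, Ent and SecPDG). Log2 odds ran from -0.53 to 2.36 for v4 and -0.19 to 1.37 for v6 in Tuft, -3.33 to 4.72 for v7 in EEC, and -0.75 to 0.028 for Kitl exon 6 in AbsPro.

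Correlations of the deviations of same-numbered pairs ran from -0.39 to 0.53, and between Ent and Tuft 3 of 5 were over 0.1. Differently numbered libraries were not compared, so whether the numbers pair libraries was not settled. With a replicate block, 1, 4, 4, 3 and 2 of the 5 genes were called in AbsPro, SecPDG, Tuft, Ent and EEC, with Cd24a in SecPDG gaining its call (1.54, adjusted p = 0.00993), and Cd44 in Tuft against SecPDG was -0.12. Over all genes, calls ranged between these alternatives from 83 to 455 in AbsPro (134 in the fit reported), 707 to 2179 in SecPDG (1134), 1468 to 4486 in Tuft (2748), 3082 to 10016 in Ent (5060) and 1460 to 7664 in EEC (4541). With a trended dispersion, Cd44 in SecPDG (adjusted p = 0.0116), Kitl in Ent (0.0116) and Cd24a in Ent against AbsPro (0.0128) lost their calls. By Spearman correlation, 1, 2, 2, 0 and 1 of the 3 most similar genes were shared for Cd44, Cd24a, Kit, Kitl and Epcam. The causes of these changes were not tested.

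The depth limits the exons most, since 21 reads in Ent joined Cd44 c5 to a variable exon and the EEC table lists only the junctions to v8 and v9, with no reads, and 1 library supplied most skipping reads of Kitl exon 6 in SecPDG and all of them in EEC.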
